A study of Mus musculus with 8 samples.

Results

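The SLC25 genes encode carriers, most of which sit in the mitochondrial inner membrane and move nucleotides, cofactors, carboxylates and amino acids between the cytosol and the matrix. They were examined in interscapular brown fat of 8 mice. Of 54532 genes in the deposited count table, 47 had a symbol made of Slc25a and a number. Slc25a1, Slc25a20 and Slc25a44 were left out and are not analysed here, and of the remaining 44 genes 36 had at least 80 counts over the 8 libraries and were taken as the members. All 36 also passed the filter on low counts that preceded the test. Slc25a14, with 230 counts in all, was the member nearest to the minimum, and Slc25a13, with 52, lay just under it.

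The mice were 7-month-old males on normal chow, held at 4 °C for 24 h before the tissue was taken. All 8 carried the floxed Pparg alleles. The 4 control mice had no Cre by their labels, and the 4 others also carried Myl1-Cre, a recombinase under the control of the myosin light chain gene Myl1. Myl1 is a fast skeletal muscle gene, and in the study it marks a class of adipose progenitor cells, so recombination is limited to cells that use this gene. No mice with Cre and without floxed alleles were used here. The comparison asks what the loss of Pparg, the receptor needed to form fat cells, in cells of that lineage does to brown fat in the cold. In counts per each 1000000 (CPM), Pparg RNA was at 197 ± 7.36 in the control against 284 ± 24.9 under the knockout label (SD, n = 4). This direction goes against the label, although counts over the whole gene do not show whether its floxed part was still transcribed, so these libraries are called labelled knockout throughout.

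The libraries held 12226608 to 19268945 counts, and in a single library 0 counts left room for at most 0.156 to 0.245 CPM, counting error alone considered. The 15 brown and general adipocyte markers were all detected, with a summed level of 29949 to 36675 CPM in the control and 24578 to 31863 CPM in the libraries labelled knockout. Of their log2 fold changes 11 were below 0, with a median of -0.30, and Pparg was the 1 marker that passed the test. By an unadjusted p under 0.05 in edgeR 5 were lower and 1 higher, where 7.12% and 8.05% of all genes were. Transcripts of skeletal muscle, which lies next to this depot, were also present. All 35 listed muscle genes were detected and had log2 fold changes above 0, with a median of 0.70. None passed the threshold, 22 were higher at an unadjusted p under 0.05 in edgeR (8.05% of all genes were), and their summed level was 8019 to 21820 CPM in the control and 15429 to 28710 CPM in the libraries labelled knockout. A muscle score, their log2 CPM averaged, was 7.22, 8.60, 8.05 and 8.16 in controls 1 to 4 and 8.88, 9.002, 8.96 and 8.07 in labelled knockouts 1 to 4. Control 1 was the lowest, and labelled knockout 4 lay among the controls. Myl1, which is not among the 35, did not share their direction. Its level was 378 ± 68.8 CPM in the control and 367 ± 105 CPM in the libraries labelled knockout (log2 fold change -0.05 ± 0.20, SE). Macrophage markers had 12 of 12 log2 fold changes above 0 (median 0.42), 3 of them at an unadjusted p under 0.05 in edgeR. Endothelial markers had 4 of 8 above 0 (median 0.04), and 0 passed the threshold in either list.

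Brown fat mitochondria burn fatty acids and oxidise the products for heat. This asks the inner membrane to pass phosphate and adenine nucleotides for ATP synthesis, coenzyme A and NAD for the oxidation of fuels in the matrix, and carboxylates and amino acids for the shuttles that carry reducing equivalents. Ucp1, which lets protons leak back for heat, is a member of the same protein family under another name.

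Between the genotypes, 1 carrier fell past the threshold, an adjusted p of 0.05 in edgeR's quasi-likelihood test over all 13756 genes tested, and 0 rose. The 1 was Slc25a42, a carrier of coenzyme A. Among all genes tested, 0.0945% passed as lower and 0.291% as higher. By the unadjusted p of the same test (under 0.05), 6 members were lower and 5 higher, against 7.12% and 8.05% of all genes. DESeq2 called 1 member in each direction, against 1.18% of all genes lower and 1.61% higher. The count of members stayed at 1 lower and 0 higher after adjustment for the muscle score (0.0145% of all genes lower and 0.182% higher), with the mouse number as a block (0.334% and 0.792%), without the low-count filter (0.283% and 0.484%) and at an adjusted p of 0.1 (0.385% and 0.531%). Over the 36 members 22 log2 fold changes were below 0 and 14 above it, where 49.7% and 50.3% of all genes lay. Their median was -0.12, beside 0.00 for all genes tested. After adjustment for the muscle score the members' median was -0.05 and that of all genes -0.02. Labelled knockouts 1 to 3 had higher scores than every control, so no adjusted value given here fully separates the score from the genotype. In bulk tissue, fewer cells of a type and less RNA per cell cannot be told apart.

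**Figure D1:**
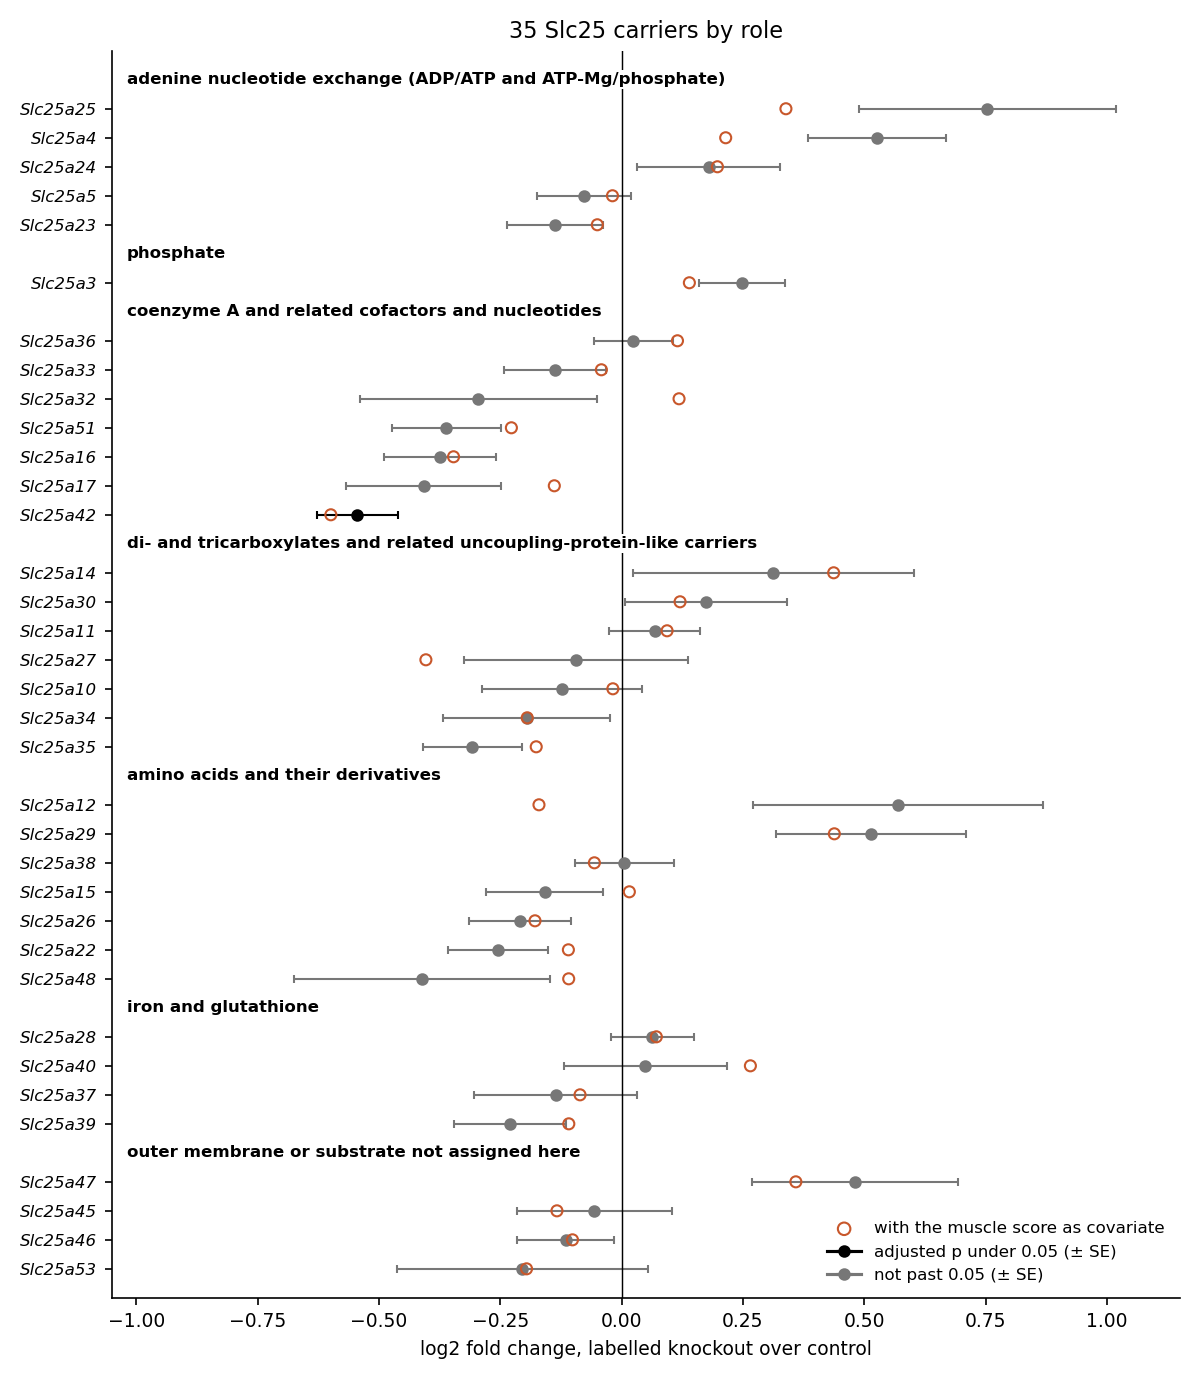
Log2 fold change of 35 of the 36 carriers (labelled knockout over control, 4 libraries each), grouped by role. Filled circles with bars give the fold change and its standard error (SE), black where the adjusted p was under 0.05, and open circles the fold change after adjustment for the muscle score. Slc25a42, at -0.54, is the 1 black circle, and the open circle of Slc25a12 lies at -0.17, on the other side of 0 from its filled circle at 0.57.

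The carriers differed widely in abundance. Levels of different genes are given here as CPM per kilobase of merged exons. This length joins the exons of all annotated transcripts, such as 5550 bases for Slc25a3 and 1646 for Slc25a5. The order and shares below depend on it and may differ by the length of the transcript in use. Averaged over all 8 libraries, the levels ran from 0.286 for Slc25a53 to 425 for Slc25a4, with a median of 9.67. Slc25a4 and Slc25a5, the ADP/ATP translocases ANT1 and ANT2, together held 46.1% of the summed level of the 36 members, and the 10 most abundant held 87.7%. After these came Slc25a39, a glutathione importer in human cells, at 187, and Slc25a51, an NAD carrier, at 112. Further down came the oxoglutarate and malate carrier Slc25a11 at 79.8, the phosphate carrier Slc25a3 at 79.5 and the peroxisomal carrier Slc25a17 at 76.8. In this order the ranges over 8 libraries overlapped in 30 of 35 neighbouring pairs. The 5 pairs that stood apart were Slc25a5 and Slc25a39, Slc25a39 and Slc25a51, Slc25a42 and Slc25a33, Slc25a46 and Slc25a28, and Slc25a14 and Slc25a53. By this measure the 2 translocases thus formed the top level together. In the control the mean of Slc25a5 was the higher of them, at 407 against 348 for Slc25a4. In the libraries labelled knockout that of Slc25a4 was higher, at 502 against 386 for Slc25a5.

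**Figure D2:**
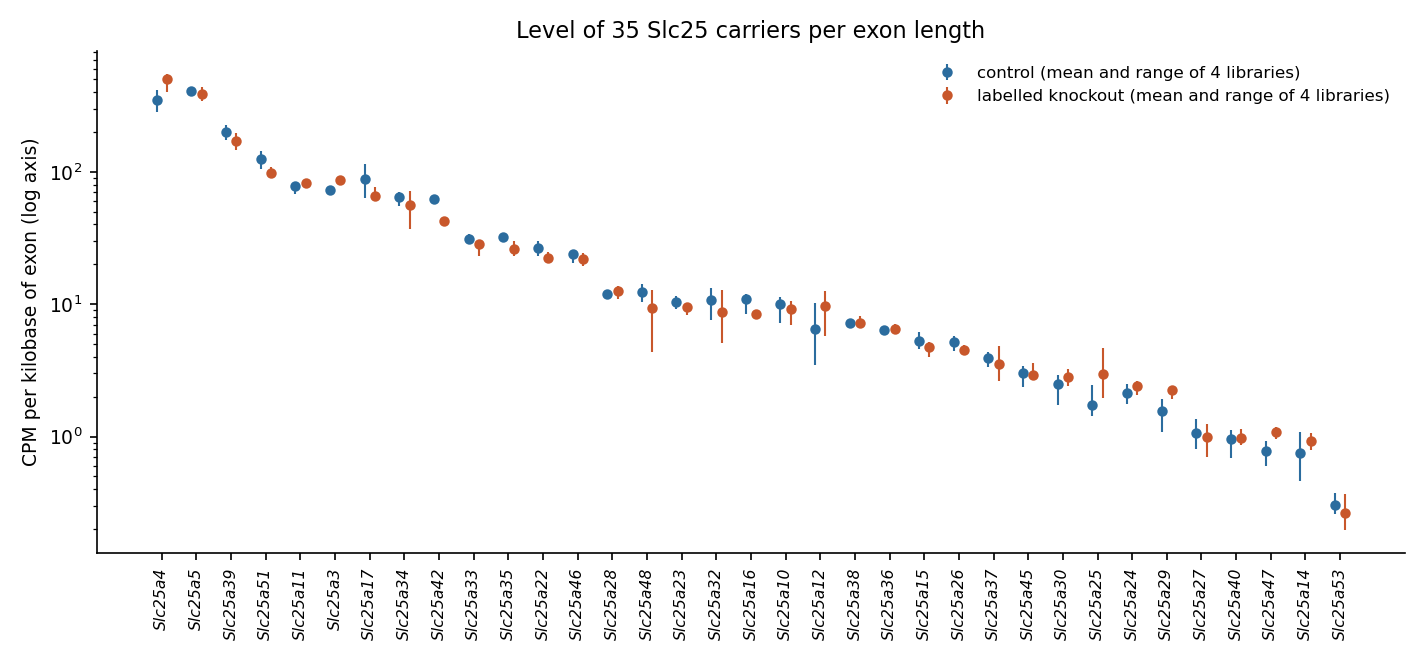
Level of 35 of the 36 carriers in CPM per kilobase of merged exons on a log axis, ordered by their mean over 8 libraries. Points are means of 4 libraries and lines their lowest to highest value, blue for control and orange for labelled knockout. The points span 0.265 for Slc25a53 to 502 for Slc25a4, both in the labelled knockout. Slc25a42 is a carrier whose lines do not touch between the groups.

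Of the 8 genes under the count minimum, Slc25a13 had 52 counts, Slc25a31 42, Slc25a2 23, Slc25a18 7, Slc25a21 5 and Slc25a43 2, while Slc25a41 and Slc25a54 were listed at 0 in every library. Slc25a13 and Slc25a12 encode the 2 forms of the aspartate and glutamate carrier, known as citrin and aralar. Slc25a12 had 7145 counts in all, so nearly all counts for this carrier came from Slc25a12. Slc25a31 encodes a germ cell form of the ADP/ATP translocase, and Slc25a5-ps, a pseudogene copy of Slc25a5, had 7 counts.

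Carriers of coenzyme A and related cofactors and nucleotides were the group that held the call. Of 8 members 7 had log2 fold changes below 0 and 1 above, with a median of -0.33. The summed level was 1751 to 2152 CPM in the control and 1438 to 1724 CPM in the libraries labelled knockout, without overlap. The margin was narrow. This sum includes Slc25a42, the 1 member of the group whose own ranges did not overlap. Without Slc25a42 the summed levels of the groups overlapped. Slc25a42 passed and 3 more, Slc25a16, Slc25a51 and Slc25a17, were lower at an unadjusted p under 0.05 in edgeR, where 7.12% of all genes were. After adjustment for the muscle score the median of the group was -0.09. The adipocyte markers given above also had a lower summed level, with a median log2 fold change of -0.30, or -0.22 after the same adjustment. Their part in these values was not tested.

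Slc25a42 (ENSMUSG00000002346, GRCm38 chromosome 8, 70184340 to 70212305, minus strand) encodes the inner membrane carrier that, in the human protein, brings coenzyme A into the matrix in exchange for adenine nucleotides. Its level was 362, 401, 374 and 359 CPM in controls 1 to 4 and 254, 249, 273 and 250 CPM in labelled knockouts 1 to 4. Every control lay well above every library labelled knockout, and the spread within a group was small, with a coefficient of variation of 5.16% in the control and 4.32% in the labelled knockout, against medians of 12.9% and 11.7% over the members. The group means were 374 ± 19.3 and 256 ± 11.1 CPM, so that Slc25a42 fell by 31.4% (log2 fold change -0.54 ± 0.08, SE, edgeR adjusted p = 0.0183). The adjusted p was 1.68e-09 in DESeq2, 0.0161 in limma-voom and 0.0438 in edgeR after adjustment for the muscle score, where the log2 fold change was -0.60. Labelled knockout 4, with a muscle score among the controls, is a single library. The part of muscle content in the level of Slc25a42 was not tested. Leaving out a library kept the log2 fold change between -0.57 and -0.51, but the edgeR adjusted p was then above 0.05 in 6 of 8 fits, at 0.0592 without control 2, 0.0564 without control 4 and 0.0679, 0.0566, 0.0624 and 0.0554 without labelled knockouts 1 to 4, in fits with fewer samples. No member lay lower without overlap other than Slc25a42, where 4% of all genes tested did so.

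The promoter of Slc25a42 is shown because this carrier held the call. It is the RefSeq window of 300 bases, 250 before to 50 after the start, on GRCm38.p6 at chr8:70212232-70212531, minus strand, 5′ to 3′, with CCAAT in capitals where it reads on either strand (ATTGG on the other).
Slc25a42: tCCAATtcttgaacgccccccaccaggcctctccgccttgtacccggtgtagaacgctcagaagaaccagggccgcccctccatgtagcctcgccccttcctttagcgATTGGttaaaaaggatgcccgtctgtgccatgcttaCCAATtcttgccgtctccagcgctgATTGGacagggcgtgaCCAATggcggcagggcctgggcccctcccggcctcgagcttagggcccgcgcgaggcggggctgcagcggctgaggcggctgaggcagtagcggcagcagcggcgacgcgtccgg
The window held 5 such matches. At least 1 was found in 37.4% of all 32851 promoter windows and in 19 of the 37 windows of members. Those 19 belong to 16 of the 28 members with a window. As many as 5 were found in 0.271% of all windows and in no other member. CCAAT is the core of the box bound by the factor NF-Y. The direct repeat of AGGTCA with 1 base between the copies, a form bound by PPAR with RXR, was in 0.0396% of all windows, and TCAAGGTCA, a form bound by oestrogen-related receptors, in 0.423%. Neither was in a window of any member, on either strand. The hexamer AGGTCA contained in both was in 16.3% of all windows and in those of Slc25a34, Slc25a39, Slc25a45 and Slc25a47. These are matches of letters in 1 window per start and not binding sites, and the motifs were chosen after the expression values were seen.

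Slc25a16 (chromosome 10, 62920633 to 62946498, plus strand) is the relative of a yeast carrier needed to keep coenzyme A in the matrix. It was at 57.3, 55.8, 40.4 and 56.1 CPM in controls 1 to 4 and at 36.9, 40.6, 42.8 and 41.2 CPM in labelled knockouts 1 to 4. Control 3 alone lay within the range of the other group. The log2 fold change was -0.37 ± 0.12 with an edgeR adjusted p of 0.183. Without control 3 it was -0.48 with an adjusted p of 0.0428, the 1 of 8 such fits in which this gene passed, and after adjustment for the muscle score it was -0.35.

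Slc25a51 (chromosome 4, 45395923 to 45408766, minus strand) carries NAD into the matrix. It was at 785, 670, 582 and 732 CPM in the controls and 501, 510, 550 and 595 CPM in the libraries labelled knockout, so that labelled knockout 4 lay above control 3. The log2 fold change was -0.36 ± 0.11 with an edgeR adjusted p of 0.188, and -0.23 after adjustment for the muscle score. Slc25a17 (chromosome 15, 81318911 to 81360812, minus strand), which in the human protein carries coenzyme A, FAD and NAD across the peroxisomal membrane, had 326, 234, 181 and 257 CPM in the controls and 172, 177, 182 and 220 CPM in the libraries labelled knockout. The groups overlapped and control 1, with the lowest muscle score, was the highest library. Its log2 fold change of -0.41 ± 0.16 (adjusted p = 0.269 in edgeR) was -0.14 after adjustment for the muscle score and -0.25 without control 1. Of the rest of this group, Slc25a32, a folate and FAD carrier, had a log2 fold change of -0.30 ± 0.24 (edgeR adjusted p = 0.602), which was 0.12 after adjustment for the muscle score and ranged from -0.54 without labelled knockout 4 to -0.11 without labelled knockout 2. The pyrimidine nucleotide carriers Slc25a33 and Slc25a36 had -0.14 ± 0.11 and 0.02 ± 0.08, with edgeR adjusted p of 0.570 and 0.919.

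**Figure D3:**
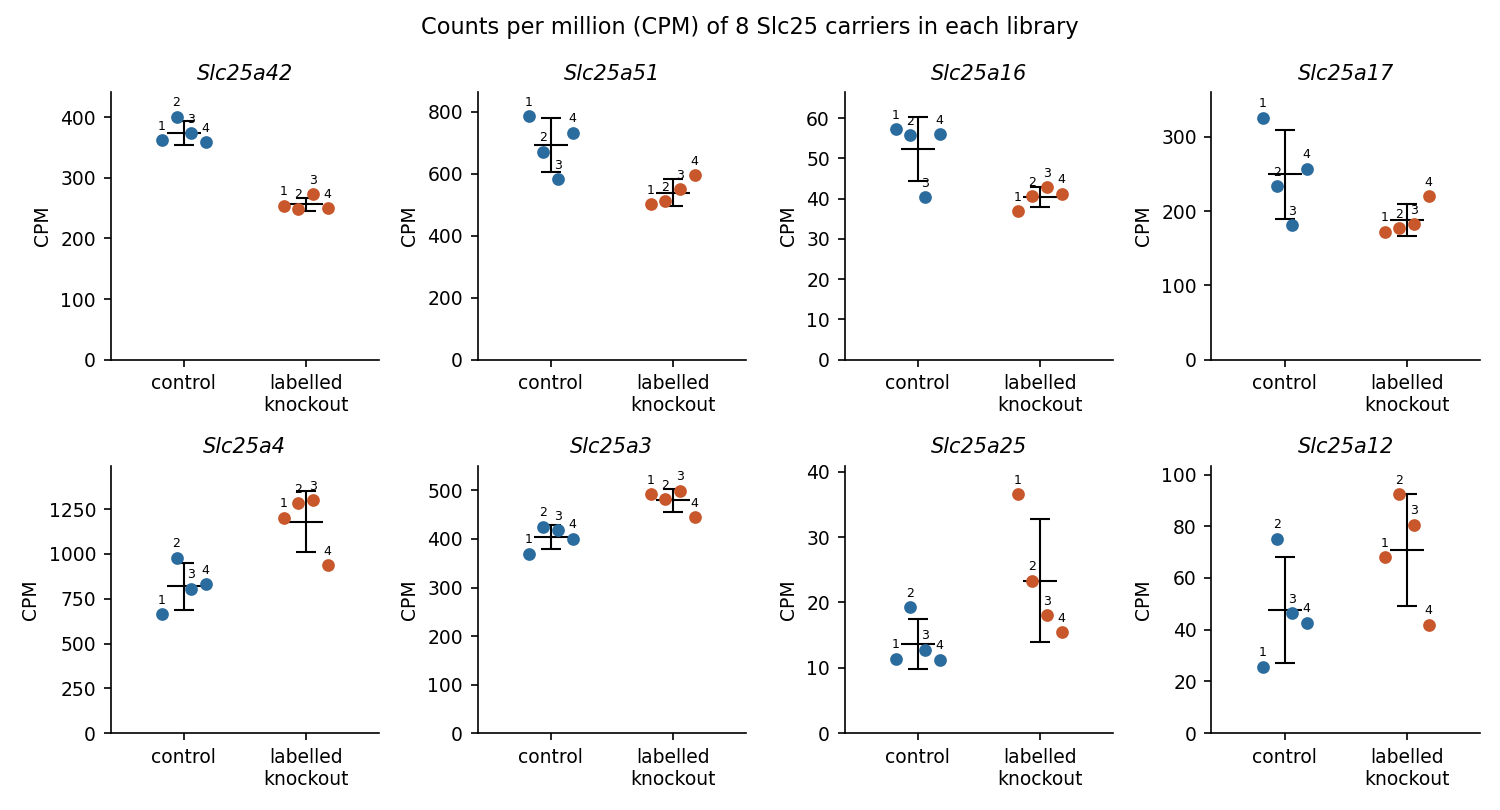
Level in CPM of 8 carriers in each library, with mean and SD per group (n = 4) and the mouse number beside each point. The groups stand apart for Slc25a42, at 359 to 401 against 249 to 273 CPM, and for Slc25a3, and overlap in the others.

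Genes that make or break down coenzyme A were set beside its carriers. Of 13 listed, all tested, 11 had log2 fold changes below 0 and 2 above, with a median of -0.17, and 0 passed (by unadjusted p under 0.05 in edgeR 5 were lower and 0 higher, where 7.12% and 8.05% of all genes were, and DESeq2 called 0). After adjustment for the muscle score the median of the list was -0.07. The 5 were Pank3 and Pank1, forms of the pantothenate kinase that limits coenzyme A synthesis, Dcakd, Slc5a6, a vitamin transporter that takes up pantothenate, and Coasy, the last enzyme of the route. Pank1 had the highest CPM, at 434 ± 62.9 CPM in the libraries labelled knockout against 548 ± 75.3 CPM in the control (log2 fold change -0.34 ± 0.13). Pank3 was at 122 ± 9.83 against 156 ± 18.5 CPM (-0.35 ± 0.10, adjusted p = 0.164 in edgeR, the lowest of the list). The log2 fold changes of Dcakd, Slc5a6 and Coasy were -0.32 ± 0.14, -0.30 ± 0.12 and -0.29 ± 0.13. The remaining genes lay between -0.37 ± 0.42 for Vnn1 and 0.47 ± 0.45 for Nudt8, with group means of 0.710 to 1.66 CPM, with Nudt7 at -0.17, Pank2 at -0.14, Ppcs at -0.09, Nudt19 at -0.03, Ppcdc at -0.01 and Pank4 at 0.04.

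Carriers of adenine nucleotides exchange ATP made in the matrix for cytosolic ADP, or set the size of the matrix pool. Of 5 members 3 had log2 fold changes above 0 and 2 below, with a median of 0.18, and none passed in edgeR. Slc25a4 (chromosome 8, 46206797 to 46211284, minus strand), whose product ANT1 is the translocase of heart and skeletal muscle, was at 662, 979, 806 and 831 CPM in the controls and 1203, 1283, 1299 and 936 CPM in the libraries labelled knockout. Labelled knockout 4 lay below control 2, and the other 3 libraries of its group lay above all controls. The log2 fold change was 0.53 ± 0.14 with an adjusted p of 0.148 in edgeR, 0.0203 in DESeq2 and 0.134 in limma-voom. After adjustment for the muscle score it was 0.21 with an adjusted p of 0.562. Over the 8 libraries Slc25a4 was lowest in control 1, which had the lowest muscle score, and highest in labelled knockouts 1 to 3, which had the highest scores.

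Slc25a5 (chromosome X, 36795651 to 36798807, plus strand), whose product ANT2 is the form of dividing and many other cells, was at 676, 695, 666 and 646 CPM in the controls and 561, 610, 654 and 716 CPM in the libraries labelled knockout. The groups overlapped and the log2 fold change was -0.08 ± 0.10. The ratio of Slc25a4 to Slc25a5, both as CPM per kilobase, was 0.685, 0.985, 0.846 and 0.901 in the controls and 1.499, 1.47, 1.39 and 0.914 in the libraries labelled knockout. By this measure ANT1 had less RNA than ANT2 in each control and in labelled knockout 4, and more in the other 3. In CPM without the length, Slc25a4 was below Slc25a5 in control 1 and above it in all other libraries. Which of the 2 had more RNA therefore depends on the exon lengths used. The log2 ratio differed by 0.61 between the groups (exact two-sided permutation p = 0.0571, n = 4 per group, where 0.0286 is the smallest p possible). This ratio was chosen after its values were seen.

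The promoter of Slc25a4 is shown because its level per kilobase, averaged over all 8 libraries, was the highest of the members. It is given from RefSeq (GRCm38.p6, chr8:46211013-46211312, minus strand, 5′ to 3′), with CCAAT and TATAA in capitals.
Slc25a4: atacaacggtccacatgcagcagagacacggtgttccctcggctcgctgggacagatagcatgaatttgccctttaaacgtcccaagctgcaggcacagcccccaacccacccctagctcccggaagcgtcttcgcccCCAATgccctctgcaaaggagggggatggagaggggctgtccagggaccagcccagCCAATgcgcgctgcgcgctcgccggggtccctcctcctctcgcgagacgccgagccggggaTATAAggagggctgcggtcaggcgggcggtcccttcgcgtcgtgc
It held CCAAT 2 times before the start and TATAA 1 time, 5 bases after the start. TATAA was in 24.9% of all windows on either strand and, among members, in those of Slc25a4, Slc25a5 and Slc25a15.

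The ATP-Mg and phosphate carriers, which calcium regulates, had lower counts. Slc25a25 (chromosome 2, 32414487 to 32451445, minus strand) had the largest log2 fold change of the 36 members, 0.75 ± 0.26, with an adjusted p of 0.229 in edgeR. It was at 11.4, 19.3, 12.8 and 11.3 CPM in the controls and at 36.6, 23.4, 18.01 and 15.4 CPM in the libraries labelled knockout. Labelled knockout 1 stood highest, labelled knockouts 3 and 4 lay below control 2, and the log2 fold change was 0.46 without labelled knockout 1. After adjustment for the muscle score it was 0.34, below Slc25a29 at 0.44 and Slc25a47 at 0.36. Its exons overlap those of Naif1 on the opposite strand, so its value is uncertain. Slc25a24 had a log2 fold change of 0.18 ± 0.15 and Slc25a23 -0.14 ± 0.10. Of 3 promoter windows of Slc25a25, 1 held TGACGTCA, the full cyclic AMP response element, which was in 1.79% of all windows and, among members, also in that of Slc25a36. It is shown with the element in capitals because this gene had the largest unadjusted fold change and cold acts on brown fat through cyclic AMP (RefSeq, GRCm38.p6, chr2:32424017-32424316, minus strand, 5′ to 3′).
Slc25a25: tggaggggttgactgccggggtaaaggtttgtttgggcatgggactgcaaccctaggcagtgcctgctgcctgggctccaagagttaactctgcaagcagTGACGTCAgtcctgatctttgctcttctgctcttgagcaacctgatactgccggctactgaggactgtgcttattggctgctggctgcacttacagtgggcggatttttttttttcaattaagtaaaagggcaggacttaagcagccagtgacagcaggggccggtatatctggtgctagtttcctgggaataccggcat
All 8 mice were in the cold, so no response to cold can be read from these libraries.

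Slc25a3 (chromosome 10, 91116574 to 91124059, minus strand) brings in the phosphate that ATP synthase uses. It was at 369, 425, 418 and 400 CPM in the controls and 492, 482, 499 and 444 CPM in the libraries labelled knockout, so that every library labelled knockout lay above every control. The log2 fold change was 0.25 ± 0.09 with an edgeR adjusted p of 0.233, and 0.14 after adjustment for the muscle score. Together with Slc25a29 and Slc25a47, it was 1 of 3 members that lay higher without overlap, where 4.1% of all genes tested did.

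Among carriers of amino acids and their derivatives 3 of 7 members had log2 fold changes above 0 and 4 below, with a median of -0.16, and none passed. Slc25a12 (chromosome 2, 71271063 to 71367749, minus strand), the aspartate and glutamate carrier of the malate-aspartate shuttle in muscle and brain, was at 25.7, 75.2, 46.5 and 42.6 CPM in the controls and 68.1, 92.5, 80.6 and 42.0 CPM in the libraries labelled knockout. The groups overlapped widely, and the order of the libraries followed the muscle score closely at both ends, with control 1 lowest and labelled knockout 2 highest in both. The log2 fold change was 0.57 ± 0.30 (edgeR adjusted p = 0.389), and -0.17 after adjustment for the muscle score. It was 0.36 without control 1 and 0.88 without control 2. Slc25a22, a glutamate carrier, had 159 ± 17.4 CPM in the control against 133 ± 11.95 CPM in the libraries labelled knockout (log2 fold change -0.26 ± 0.10, edgeR adjusted p = 0.278, and -0.11 after adjustment for the muscle score). Slc25a48, linked to the import of choline, was at 48.1, 38.3, 34.99 and 46.3 CPM in the controls and 40.0, 14.7, 28.3 and 43.0 CPM in the libraries labelled knockout. Labelled knockout 2 was far the lowest, and the log2 fold change of -0.41 ± 0.26 was -0.17 without it and -0.11 after adjustment for the muscle score. Slc25a15, the ornithine carrier, Slc25a26, the carrier of S-adenosylmethionine, and Slc25a38, the glycine carrier used for haem synthesis, had log2 fold changes of -0.16, -0.21 and 0.01, which were 0.02, -0.18 and -0.06 after adjustment for the muscle score.

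**Figure D4:**
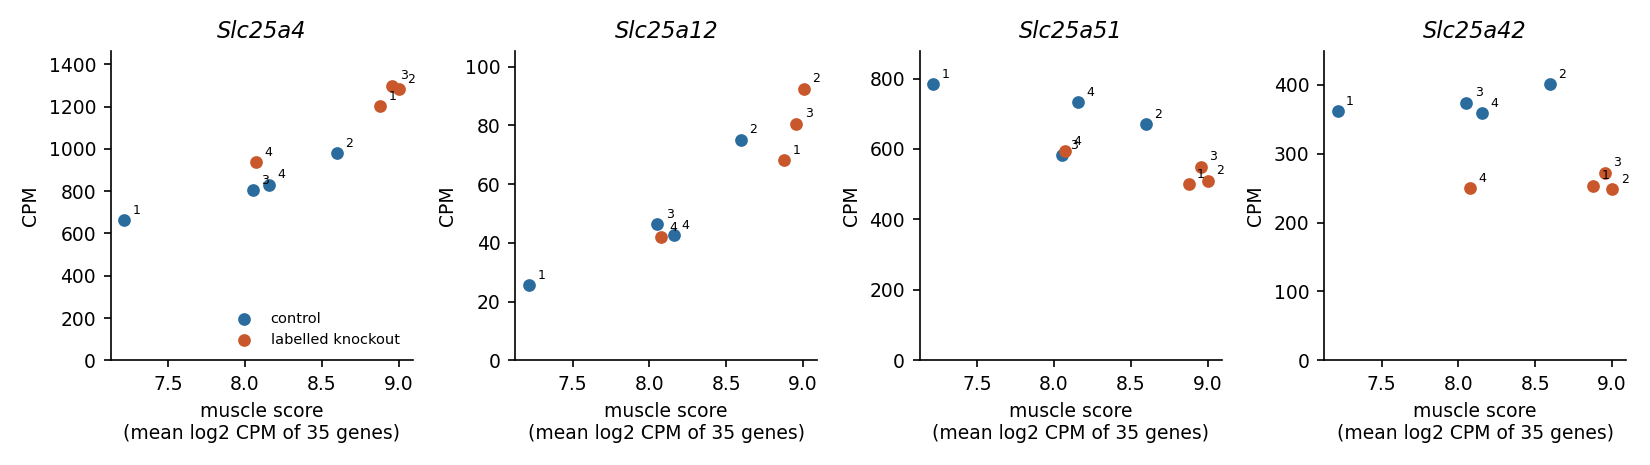
Level in CPM of 4 carriers in each of the 8 libraries against the muscle score (log2 CPM averaged over 35 genes), with the mouse number beside each point. Slc25a4 and Slc25a12 are lowest in control 1, with a score of 7.22, and high in labelled knockouts 1 to 3, with scores of 8.88 to 9.002. Slc25a42 is at 249 to 273 CPM in the labelled knockouts and 359 to 401 CPM in the controls.

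Slc25a29, a carrier of basic amino acids in the human protein, and Slc25a47, a carrier known from liver, are neighbours on chromosome 12. In the GENCODE annotation they lie head to head. There 162 bases separate Slc25a29 (minus strand, 108825873 to 108835883) from Slc25a47 (plus strand, 108836046 to 108856815). A RefSeq start window of Slc25a47 lay at chr12:108850879-108851178, inside this span, so the distance between the starts depends on the start used. Slc25a29 was at 3.67, 5.01, 4.62 and 2.84 CPM in the controls and 6.16, 5.02, 5.98 and 6.07 CPM in the libraries labelled knockout. Slc25a47 was at 1.80, 2.76, 2.07 and 2.59 CPM in the controls and 2.84, 3.48, 3.05 and 3.55 CPM in the libraries labelled knockout. In both genes the groups did not overlap, by a narrow margin. The log2 fold changes were 0.51 ± 0.20 and 0.48 ± 0.21, with edgeR adjusted p of 0.263 and 0.314. The exons of the pair do not overlap each other in the annotation. Hepatocyte markers were near the floor, with a summed level of 3.43 to 8.93 CPM in the control and 3.25 to 5.85 CPM in the libraries labelled knockout.

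Carriers of carboxylates and their uncoupling-protein-like relatives had 3 of 7 log2 fold changes above 0, with a median of -0.09, and none passed. Slc25a11, which exchanges oxoglutarate for malate, was at 165 ± 14.5 CPM in the control and 173 ± 12.2 CPM in the libraries labelled knockout, a log2 fold change of 0.07 ± 0.09. Slc25a35 was at 123, 110, 119 and 123 CPM in the controls and 85.3, 85.8, 101 and 111 CPM in the libraries labelled knockout (log2 fold change -0.31 ± 0.10, edgeR adjusted p = 0.208, and -0.18 after adjustment for the muscle score). Labelled knockout 4 alone reached the range of the control, and the exons of this gene overlap those of Rangrf on the opposite strand, so its value is uncertain. Slc25a34 had -0.20 ± 0.17 (-0.04 without labelled knockout 1 and -0.34 without labelled knockout 2), the dicarboxylate carrier Slc25a10 -0.12 ± 0.16, and Slc25a30, Slc25a14 and Slc25a27 0.17, 0.31 and -0.09.

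Iron and glutathione carriers, which feed haem and iron-sulfur cluster synthesis and protect the matrix, had 2 of 4 log2 fold changes above 0 and none past the threshold. Slc25a39 was at 555 ± 58.5 CPM in the control and 474 ± 56.4 CPM in the libraries labelled knockout (log2 fold change -0.23 ± 0.12, edgeR adjusted p = 0.372, and -0.11 after adjustment for the muscle score). Its relative Slc25a40 had 0.05 ± 0.17. The iron importers Slc25a37 and Slc25a28, mitoferrins 1 and 2, had log2 fold changes of -0.14 ± 0.17 and 0.06 ± 0.09. Slc25a37 is also a gene of red cell precursors. Of 8 erythroid markers 6 were tested and all had log2 fold changes below 0 (median -0.77, none past the threshold), with a summed level of 679 to 1682 CPM in the control and 460 to 1525 CPM in the libraries labelled knockout. Their part in the level of Slc25a37 was not tested. Slc25a46, an outer membrane protein linked to mitochondrial shape, had -0.11 ± 0.10, and Slc25a45 and Slc25a53, whose substrates are not given here, -0.06 ± 0.16 and -0.20 ± 0.26.

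Other inner and outer membrane transport genes that carry no Slc25a symbol were counted beside the members. Of 24 listed, 8 had log2 fold changes above 0 and 16 below, with a median of -0.07. By unadjusted p under 0.05 in edgeR 4 were lower and 1 higher, where 7.12% and 8.05% of all genes were. By adjusted p 1 passed in edgeR, as higher, where 0.291% of all genes did. This was Ucp2, an uncoupling protein relative, which rose by 1.69 ± 0.18 on the log2 scale (46.3 ± 4.07 against 149 ± 46.0 CPM, edgeR adjusted p = 0.00255), and whose exons overlap those of Dnajb13 on the opposite strand. DESeq2 also called the sideroflexins Sfxn1 and Sfxn5 as lower, with adjusted p of 0.0223 and 0.0285, against 0.123 and 0.128 in edgeR. Of all genes DESeq2 called 1.18% lower and 1.61% higher. The 2 of the list with the highest CPM, not scaled to length, were Ucp1 and the pyruvate carrier subunit Mpc2, which had log2 fold changes of -0.30 ± 0.14 and 0.01 ± 0.13.

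The enzymes of the malate-aspartate shuttle, in which Slc25a11 and Slc25a12 are the carriers, and of the glycerol phosphate shuttle, which uses neither, had 3 of 6 log2 fold changes above 0 and 0 past the threshold in edgeR. By unadjusted p under 0.05 in edgeR 1 was higher and 2 lower, where 8.05% and 7.12% of all genes were. The 1 higher was Got1 of the malate-aspartate shuttle (log2 fold change 0.36 ± 0.16). The 2 lower were Gpd1 and Gpd2 of the glycerol phosphate shuttle, with -0.34 ± 0.14 for Gpd2. DESeq2 called Gpd1, the cytosolic glycerol phosphate dehydrogenase, as lower with an adjusted p of 0.0455, where it called 1.18% of all genes lower. Gpd1 was at 10156 ± 2146 CPM in the control and 6537 ± 1664 CPM in the libraries labelled knockout (log2 fold change -0.64 ± 0.20, edgeR adjusted p = 0.188). Mdh2, the matrix malate dehydrogenase, had -0.03 ± 0.09, Mdh1 0.02 ± 0.10 and Got2 0.47 ± 0.25. The machinery that imports carriers into the inner membrane had 4 of 13 log2 fold changes above 0 and 0 past the threshold. By unadjusted p under 0.05 in edgeR 1 was higher and 0 lower, beside the same shares of all genes, and DESeq2 called 0. The genes with its highest CPM, Timm8b and Timm13, had log2 fold changes of 0.08 ± 0.10 and 0.11 ± 0.10, and the 1 higher gene, Timm10, stood at 61.7 ± 2.35 CPM in the control and 69.2 ± 2.26 CPM in the libraries labelled knockout.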

How the data were processed

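The authors deposited 1 table of raw counts of reads for each gene (Ensembl ID and symbol), without normalization. The tools named are HISAT2, featureCounts (Subread), SAMtools, Trimmomatic and FastQC, with GRCm38, per the submitters' processing notes. The sources used here give no settings, versions, strand option or release of the annotation. Per the labels, libraries were stranded mRNA. Columns were matched to samples by genotype and mouse number, and the labels call the 8 samples separate mice.

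CPM used TMM-scaled library sizes. Genes kept by filterByExpr (13756) were tested with edgeR 4.0.16 (glmQLFit, glmQLFTest, limma 3.58.1, R 4.3.3) on genotype, with Benjamini-Hochberg adjustment over all of them and a threshold of 0.05. SE is the absolute log2 fold change over the square root of F. The biological coefficient of variation was 16.4%. The test was run on simulated counts first. All pairs of libraries differed beyond sampling noise (chi-square 10.4 to 79.0 per degree of freedom). Exon lengths, positions and overlaps came from GENCODE M21 (GRCm38), which holds 99.9% of the IDs and may not be the release counted on. Exons of 10 members overlap a gene on the opposite strand. Where counting ignored strand their values are uncertain, among them Slc25a10, Slc25a11, Slc25a23, Slc25a25, Slc25a26, Slc25a33, Slc25a35, Slc25a37 and Slc25a46. Promoters came from RefSeq (GRCm38.p6), with windows for 28 of 36 members.

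Named are members past the threshold or at an unadjusted p under 0.05, the 8 most abundant per length, the 3 largest and 3 smallest fold changes and the most abundant of each role group, and in companion lists those that passed, the 2 most abundant and all coenzyme A genes. The values of 1 member are not reported here, though it is in all counts. Other members and list genes with values were chosen after these were seen. Members, lists and tests were chosen with earlier results of these data known. The alternatives left out each library in turn, put the muscle score or the mouse number into the model, changed the scaling (3 ways), the low-count filter (none or stricter), the dispersion (robust) or the threshold, or used limma-voom or DESeq2 1.42.0.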

Additional observations from a re-analysis of the deposited data

Results flagged for a closer look

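Within groups of 4 libraries, a library was marked where its gap to the nearest other, as a share of the group's range, exceeded Dixon's 95% critical value for 4 samples. Of 72 groups examined (36 members in 2 genotypes) 5 were marked, where chance marks about 1 in 20, or 3.6. Labelled knockout 1 was lowest for Slc25a33 at 43.4 CPM, with the others at 56.5 to 57.2 (ratio 0.949), and highest for Slc25a45 at 9.96 CPM, with the others at 7.39 to 7.45 (ratio 0.98). Control 3 was lowest for Slc25a16 at 40.4 CPM, with the others at 55.8 to 57.3 (ratio 0.91), and for Slc25a46 at 111 CPM, with the others at 133 to 138 (ratio 0.837). Labelled knockout 2 was lowest for Slc25a29 at 5.02 CPM, with the others at 5.98 to 6.16 (ratio 0.842).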

How the results depend on the processing

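The direction of Slc25a42 and its call held with 3 other scalings, DESeq2, limma-voom, both other filters, robust dispersion, the muscle score as a covariate and the mouse number as a replicate block (log2 fold change -0.54, adjusted p = 0.0329). Without 1 library its log2 fold change ranged from -0.57 to -0.51, and the number of lower members past the threshold from 0 to 2, the 2 being Slc25a42 and Slc25a16 without control 3. The number of higher members was 1 in DESeq2 (Slc25a4, log2 fold change 0.52) and 0 in the other fits. After adjustment for the muscle score, the members' median was -0.046 and 4 members changed sign: Slc25a12 turned to -0.17, Slc25a32 to 0.12, Slc25a15 to 0.02 and Slc25a38 to -0.06. Whether muscle content sets these values was not tested. Without 1 library the median lay between -0.12 and -0.07. In DESeq2, 3 of the other carriers and channels and 1 of the shuttle enzymes passed, where 1.18% of all genes passed as lower and 1.61% as higher. An adjusted p of 0.1 and no minimum on member counts left the member counts at 1 lower and 0 higher. The ratio of Slc25a4 to Slc25a5 differed by 0.51 to 0.78 (log2) without 1 library, with an exact permutation p of 0.0286 without labelled knockout 4 (4 against 3 libraries) and from 0.0571 to 0.0857 otherwise. The labels link same-numbered mice by the number alone and do not say whether they shared more. Correlations of their deviations ran from 0.02 to 0.40, and 3 of 8 libraries correlated best with their own number. The block changed no call of a member. The largest SE among members were those of Slc25a12 (0.30, with 7145 counts in all) and Slc25a14 (0.29, with 230). The part of depth in them was not tested.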
